A study of Mus musculus with 6 samples.

Results

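The miR-183, miR-96 and miR-182 cluster is a set of 3 microRNA hairpins that lie close together on mouse chromosome 6. Its members here were the rows of the deposited table named for a 5p or 3p arm of 1 of these hairpins, which gave 6 of 1414 rows. They are the 3 guide strands mmu-miR-183-5p, mmu-miR-96-5p and mmu-miR-182-5p and the 3 passenger strands mmu-miR-183-3p, mmu-miR-96-3p and mmu-miR-182-3p, written below without the species prefix. Small RNA was sequenced from pancreas of wild-type C57BL/6 mice in 6 libraries. The control group, replicates 43, 44 and 45, received saline only. The model group, replicates 56, 57 and 59, is an acute pancreatitis model. It received caerulein, a peptide that acts on cholecystokinin receptors, at a labelled dose of 50 mg/kg. LPS, the endotoxin of bacterial outer membranes, was added to the final injection. Both groups had 7 intraperitoneal injections at hourly intervals and tissue was collected at 24 hours from the start. No group had caerulein or LPS by itself, so their effects cannot be told apart. The labels do not say that each library is a separate mouse, and the p-values given reflect only how far these libraries scatter, part of which may be technical.

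The 3 hairpins are processed from a shared primary transcript and are best known from sensory organs, where they are abundant in photoreceptors and inner ear hair cells, and where changes in the seed of miR-96 cause progressive hearing loss. A microRNA finds its target mRNAs chiefly through its seed, bases 2 to 8 of the mature strand, and the seeds of this cluster resemble each other, so their predicted targets overlap in part. The transcription factor FoxO1 is a known target of miR-96 and miR-182, and miR-182 is induced in activated helper T cells.

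The mature guide strands are shown because their seeds, in capitals, tell which members could share targets. All 6 mature sequences of the table were identical to those in RefSeq for GRCm38.p6.
miR-183-5p: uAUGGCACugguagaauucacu
miR-96-5p: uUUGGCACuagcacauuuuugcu
miR-182-5p: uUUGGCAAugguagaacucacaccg
Counted from 1 at the 5′ end, the first 8 bases of miR-96-5p and miR-182-5p differ by C8A, and those of miR-96-5p and miR-183-5p by U2A. Between miR-182-5p and miR-183-5p both positions differ, U2A and A8C, although these 2 strands match best over their whole length, at 18 of 22 positions against 12 of 23 for miR-96-5p with miR-182-5p and 13 of 22 for miR-96-5p with miR-183-5p. No 2 guide strands had the same bases 2 to 8, and miR-96-5p and miR-182-5p had the same bases 2 to 7. Outside the cluster 0 rows of the table, known or predicted, had bases 2 to 8 or 2 to 7 of any member. At 25 bases miR-182-5p is long for a microRNA: 1.36% of the 1104 known rows had at least 25 bases, and the median was 22.

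The passenger strands share no seed with a guide strand or with one another.
miR-183-3p: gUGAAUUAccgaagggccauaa
miR-96-3p: cAAUCAUGuguagugccaauau
miR-182-3p: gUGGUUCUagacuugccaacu

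The hairpins show where each pair of arms, in capitals, sits. All are on the minus strand of GRCm38.p6, at chr6:30169668-30169737 for Mir183, chr6:30169446-30169551 for Mir96 and chr6:30165918-30165992 for Mir182.
Mir183: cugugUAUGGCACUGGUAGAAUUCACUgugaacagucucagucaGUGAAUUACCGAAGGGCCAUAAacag
Mir96: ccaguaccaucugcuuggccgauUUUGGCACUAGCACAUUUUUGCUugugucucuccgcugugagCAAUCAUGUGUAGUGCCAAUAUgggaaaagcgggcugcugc
Mir182: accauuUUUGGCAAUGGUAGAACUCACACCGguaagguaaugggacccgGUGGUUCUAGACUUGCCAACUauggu
Mir183 and Mir96 are 116 bases apart and Mir96 and Mir182 are 3453 bases apart, and the whole cluster spans 3820 bases. None of the 3 overlapped another annotated gene in GENCODE M21, so they are intergenic there. The nearest annotated neighbours are the noncoding Rncr4, which starts 3155 bases away on the plus strand, and the protein-coding Nrf1, a transcription factor gene that ends 12459 bases away, also on the plus strand.

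Total microRNA counts per library ran from 1943693 to 3006220. These counts were 7.17% to 9.43% of the totals that the authors' RPM values are based on in control libraries and 10.2% to 13.6% in model libraries, so levels per microRNA and levels per library total differ between the groups. Values below are CPM scaled with TMM factors, which set the typical microRNA equal between libraries, unless the authors' RPM is named. All 8 listed acinar microRNAs were in the table, but so was every member of the other lists used below, so presence alone does not test the tissue label. By level, the acinar miR-216a-5p was at 27827 ± 6775 CPM in the control group and 20990 ± 1784 CPM in the model group (SD, n = 3 each). Control means of the acinar rows ran from 72.7 CPM for miR-216b-3p to 30600 CPM for miR-148a-3p. No other tissue was compared, so these levels do not test the label either. In bulk tissue, fewer cells of a type and less RNA per cell cannot be told apart.

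The 3 guide strands were abundant and close to each other in level, and on the TMM scale none passed the test for a difference between pancreatitis and control pancreas. Means over the 6 libraries were between 4415 CPM for miR-96-5p and 4786 CPM for miR-182-5p, and the guides ranked between 40 and 69 among the known rows of a library. Of the 4 members tested, 0 passed edgeR's quasi-likelihood test (adjusted p under 0.05), where 1.2% of all 499 rows did. At an unadjusted p under 0.05 the count of members was 0 as well, and 0 members passed in DESeq2, where 5.25% of its rows did. The groups overlapped for all 6 members on the TMM scale, where 31.1% of the 499 rows did not overlap. All 4 tested members had positive log2 fold changes with TMM factors, of which those of miR-183-5p and miR-182-5p were negative with upper quartile factors and without control replicate 44. Levels set side by side between microRNAs also carry the ligation preferences of each sequence.

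The guide strand of the first hairpin, mmu-miR-183-5p, was at 4861, 3496 and 4725 CPM in control replicates 43, 44 and 45. In model replicates 56, 57 and 59 it was at 5328, 4164 and 4918 CPM. Control 44 was the lowest library and model 57 lay below the other 2 controls, so the groups overlapped. The means were 4361 ± 752 and 4803 ± 590 CPM (SD, n = 3 each), a log2 fold change of 0.14 (SE 0.19, 95% interval -0.30 to 0.58, edgeR adjusted p = 0.74). Among the 3 guides it had the narrowest interval. Its log2 fold change was -0.0077 without control replicate 44 and -0.13 with upper quartile factors.

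The guide strand mmu-miR-96-5p, whose seed is the one linked to hearing loss, had the highest log2 fold change of the 3 guides. It was at 2826, 2588 and 5519 CPM in controls 43, 44 and 45, against 5466, 4031 and 6062 CPM in model libraries 56, 57 and 59. Control 45 lay among the model libraries and above 2 of them, while the other 2 controls lay below every model library. The means were 3644 ± 1628 and 5186 ± 1044 CPM (SD, n = 3 each), a log2 fold change of 0.51 (SE 0.32, 95% interval -0.24 to 1.25, edgeR adjusted p = 0.387). Without control replicate 45 the log2 fold change was 0.91 (standard error 0.22, adjusted p = 0.073 in edgeR), and over the other libraries left out in turn it ran from 0.31 to 0.68. Of the 499 rows, 97 had a higher log2 fold change than miR-96-5p, 200 a higher one than miR-183-5p and 208 a higher one than miR-182-5p.

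The guide strand mmu-miR-182-5p, known from activated helper T cells, varied most between libraries. It was at 5109, 2163 and 6461 CPM in controls 43, 44 and 45, against 3956, 5452 and 5573 CPM in model libraries 56, 57 and 59. The controls held both the lowest and the highest library, with all model libraries between them. The means were 4578 ± 2198 and 4994 ± 900 CPM (SD, n = 3 each), a log2 fold change of 0.13 (SE 0.38, 95% interval -0.77 to 1.02, edgeR adjusted p = 0.889). Without control replicate 44 the log2 fold change was -0.22 (standard error 0.21, adjusted p = 0.631 in edgeR), and with upper quartile factors it was -0.16. Counting error was small beside this spread: the lowest guide count, 4443 for miR-182-5p in control 44, has an exact 95% Poisson interval of 4313 to 4576, which covers counting error only.

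**Figure D1:**
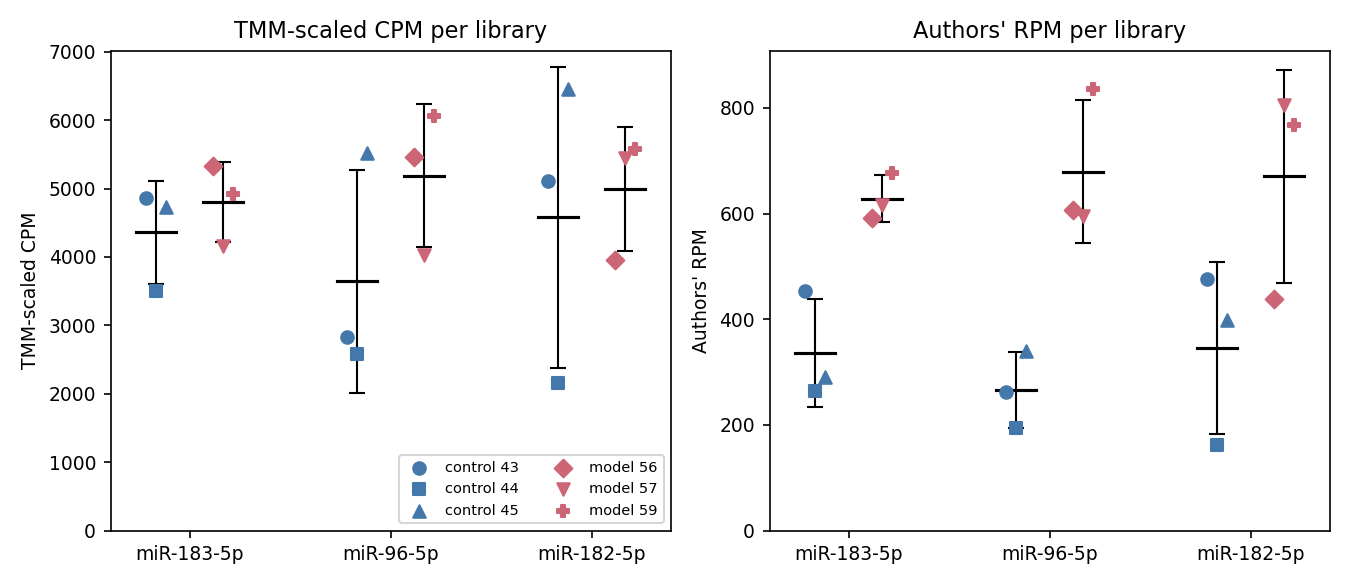
Levels of the 3 guide strands in each library as TMM-scaled CPM (left) and as the authors' RPM (right), with control libraries in blue and model libraries in red, a bar at each group mean and error bars of 1 SD (n = 3). The groups overlap for every guide on the left, while on the right miR-183-5p and miR-96-5p are higher in all 3 model libraries than in any control and miR-182-5p overlaps through model 56.

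Other abundant microRNAs mostly had negative values on the TMM scale. Of the 96 rows outside the guides with a mean of at least 1000 CPM, a limit chosen after the values had been seen, 70 had negative and 26 had positive log2 fold changes. Their median was -0.28, and the median over all 499 rows was 0.0050. The split turned with the scaling: 50 of the 96 were positive with total counts alone (median 0.018) and 91 with the authors' totals (median 0.51), while 86 were negative with upper quartile factors (median -0.57).

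**Figure D2:**
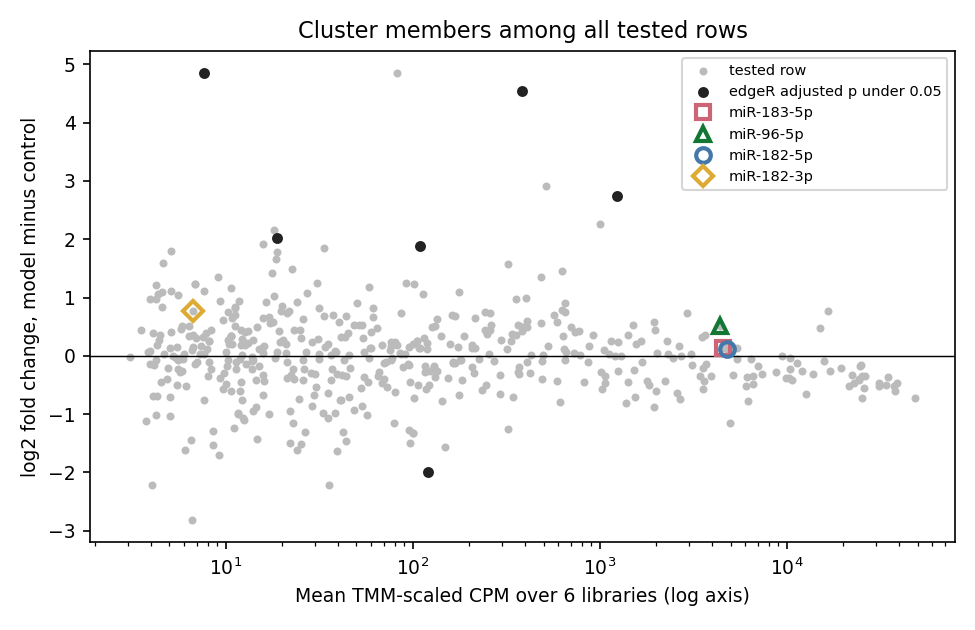
Mean TMM-scaled CPM over the 6 libraries (log axis) against the log2 fold change, model minus control, for the 499 tested rows in grey, with the 6 rows past the threshold in black and the 4 tested cluster members as open symbols. The 3 guides sit slightly above 0 in a range of abundance where most rows sit below it on this scale; with the authors' totals, 91 of those 96 rows were positive.

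Per authors' library total, 2 of the 3 guides were higher in every model library than in any control, and the mean of the third, miR-182-5p, was higher as well. The authors' RPM of miR-183-5p was 453, 263 and 291 in controls 43, 44 and 45, against 591, 616 and 678 in model libraries 56, 57 and 59. That of miR-96-5p was 263, 195 and 340 in controls and 606, 596 and 835 in model libraries, in the same order. Every model library lay above every control for both. The RPM of miR-182-5p was 476, 163 and 398 in controls and 439, 806 and 768 in model libraries, where model 56 lay below control 43. Its means were 346 and 671.

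Tested with these library totals in place of TMM factors, miR-96-5p rose with a log2 fold change of 1.35 (standard error 0.32, adjusted p = 0.00661 in edgeR) and miR-183-5p with one of 0.90 (standard error 0.31, adjusted p = 0.0371 in edgeR). That of miR-182-5p was 0.96 (standard error 0.39, adjusted p = 0.0758 in edgeR). So 2 of the 4 tested members were called higher with that scaling, where 24.8% of all rows were, and 2 of the 6 members did not overlap in RPM, where 49.5% of the 499 rows lay higher in every model library. The median of all rows moved by 0.79 with the authors' totals. Against the median of all rows under each scaling, miR-96-5p was 0.50 higher with TMM factors and 0.56 higher with the authors' totals, miR-183-5p 0.13 and 0.11, and miR-182-5p 0.12 and 0.16. The position of the guides among the rows therefore moved little while the calls changed.

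**Figure D3:**
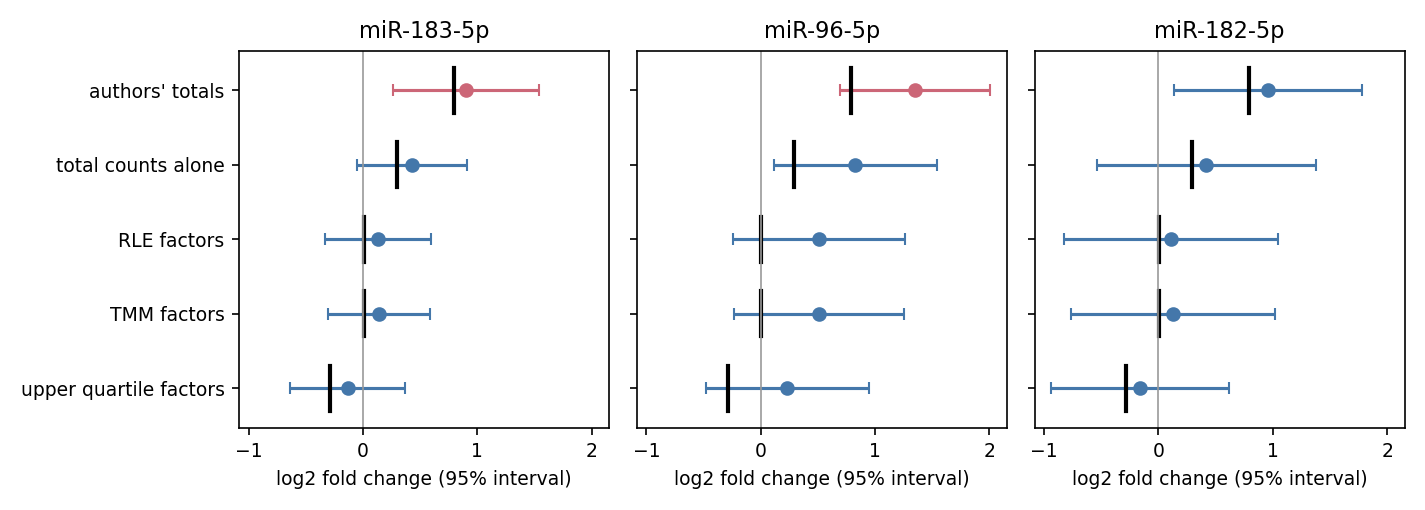
The log2 fold change, model minus control, of each guide with its 95% interval under 5 ways of scaling the libraries, in red where the edgeR adjusted p was under 0.05 and in blue otherwise, with a black bar at the median of all tested rows under that scaling. Each guide keeps nearly the same distance from the black bar, and the 2 red values are those of miR-183-5p and miR-96-5p with the authors' totals.

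Summed over its 6 rows, the cluster took 1.26%, 0.712% and 1.43% of all counts in controls 43, 44 and 45, against 1.60%, 1.48% and 1.92% in model libraries 56, 57 and 59. The shares averaged 1.14% ± 0.377 and 1.67% ± 0.228 (SD, n = 3 each), and all model libraries lay above all controls. Taken one by one on that scale of total counts, 0 of the 6 members lay higher in every model library, where 26.9% of the 499 rows did. On the TMM scale the sums overlapped, with 12804, 8255 and 16709 CPM in controls and 14767, 13650 and 16565 CPM in model libraries. Control 44 had the lowest sum on each scale.

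Ratios within a library do not depend on scaling, and they showed how evenly the guide strands of 1 transcript were represented. The ratio of any 2 guides stayed between 0.553 and 1.62 over all libraries. The log2 ratio of miR-96-5p to miR-183-5p was -0.78, -0.43 and 0.22 in controls 43, 44 and 45, against 0.037, -0.047 and 0.30 in model libraries 56, 57 and 59. Only control 45 reached the range of the model libraries. The means were -0.33 ± 0.51 and 0.097 ± 0.18 (SD, n = 3 each), a difference of 0.43 with a two-sided exact permutation p = 0.3. The log2 ratio of miR-96-5p to miR-182-5p differed by 0.33 (exact permutation p = 0.6) and that of miR-183-5p to miR-182-5p by -0.10 (exact permutation p = 0.8). Adjusted over these 3 ratios each exact permutation p was 0.8, and 3 libraries against 3 cannot give one below 0.1.

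By share of the cluster's counts, miR-96-5p made up 22.1%, 31.3% and 33.0% in controls 43, 44 and 45, against 37.0%, 29.5% and 36.6% in model libraries 56, 57 and 59. For miR-182-5p the shares were 39.9%, 26.2% and 38.7% in controls and 26.8%, 39.9% and 33.6% in model libraries, and the lowest values of both groups, in control 44 and model 56, were nearly equal. The shares of miR-183-5p were 38.0%, 42.3% and 28.3% in controls and 36.1%, 30.5% and 29.7% in model libraries. The groups overlapped for each guide.

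Passenger strands are mostly degraded once the guide has been loaded into Argonaute, and those of the cluster were scarce in every library. The 3p arm made up at most 0.359% of a hairpin's counts in any library. For Mir183 this share ran from 0.0127% to 0.0425%, for Mir96 from 0 to 0.0817% and for Mir182 from 0.0464% to 0.359%. Both miR-183-3p and miR-96-3p had too few counts to be kept for the test, while miR-182-3p was kept.

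The passenger strand of Mir183 had 3, 2 and 1 counts of mmu-miR-183-3p in controls 43, 44 and 45, against 5, 2 and 7 in model libraries 56, 57 and 59. The ratio of its summed TMM-scaled rates, model to control, was 1.58 (exact 95% interval 0.572 to 5.03, counting error only). Its log2 ratio of 5p to 3p arm, each raised by 1 count, was 11.60 ± 0.36 in the control group and 11.46 ± 0.60 in the model group (SD, n = 3 each; two-sided exact permutation p = 0.8). For miR-96-3p the counts were 6, 0 and 0 in controls and 4, 0 and 7 in model libraries. Taken as 3 counts of the total, a count of 0 allows a 3p share of Mir96 of up to 0.0564% in control 44, 0.0326% in control 45 and 0.0228% in model 57. The upper ends of the two-sided exact 95% binomial intervals, as plotted, are 0.0694%, 0.0401% and 0.0281% in these libraries. Both groups held libraries with and without a count, and the ratio of summed rates was 1.24 (exact 95% interval 0.422 to 4.10, counting error only). All 6 control counts came from replicate 43. The ratio of summed rates of miR-96-3p was 0.840 without control 44, 0.916 without control 45 and 0.707 without model 59, against 1.92 without model 57 and 2.13 with the authors' totals.

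The passenger strand miR-182-3p had 10, 16 and 5 counts in controls 43, 44 and 45, against 38, 9 and 28 in model libraries 56, 57 and 59. That corresponds to 3.85, 7.79 and 3.00 CPM in controls and 14.1, 2.76 and 8.37 CPM in model libraries, so the lowest library of all was a model library and the groups overlapped. The log2 fold change was 0.76 (SE 0.65, 95% interval -0.75 to 2.27, edgeR adjusted p = 0.558). It was 0.24 without model 56, 0.51 without control 45, 1.25 without control 44, 1.22 without model 57 and 1.46 with the authors' totals, and with upper quartile factors it was 0.50. The edgeR adjusted p over all its alternatives ran from 0.0738 to 0.888. As a share of hairpin counts the 3p arm was 0.359% in control 44 (exact 95% interval 0.205% to 0.582%) and 0.355% in model 56 (0.251% to 0.486%), against 0.0464% to 0.150% in the other 4 libraries. The interval of control 44 overlapped that of model 59 (0.0997% to 0.217%). Control 44 and model 56 had the lowest miR-182-5p of their groups, which by itself raises this share and is no separate observation. They also had the highest miR-182-3p of their groups, at 7.79 and 14.1 CPM. Fitted across the 125 hairpins whose arms both averaged 10 counts or more, the log2 ratio of 5p to 3p of miR-182 differed by -0.29 between the groups (SE 0.90, limma adjusted p = 0.95), where 0.8% of the hairpins passed the threshold. The difference was 0.27 without control 45 and 0.37 without model 56, against -1.12 without control 44 and -0.98 without model 57.

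**Figure D4:**
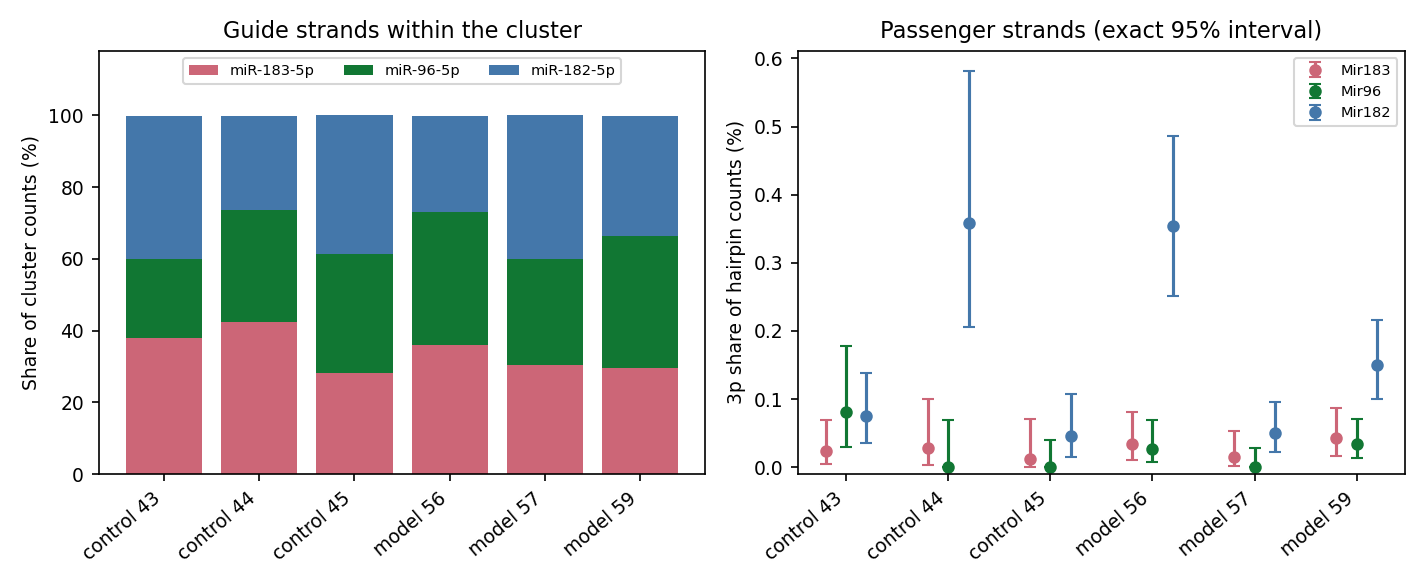
Left, the share of the cluster's counts held by each guide strand in each library, stacked. Right, the 3p share of each hairpin's counts with its exact 95% binomial interval, where Mir182 in control 44 (0.359%) and model 56 (0.355%) lies above the other libraries.

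The 3 guides did not follow one another closely from library to library. Pearson's r on log2(CPM + 1) over the 6 libraries was 0.67 for miR-183-5p with miR-96-5p, 0.65 for miR-183-5p with miR-182-5p and 0.61 for miR-96-5p with miR-182-5p. These values are descriptions over libraries that share their depth and scaling. The rows named next were picked for the highest r among 197 over only 6 libraries. Such a choice gives high values by itself, so they cannot be compared with the r of the guide pairs. Among 197 other known rows of at least 100 CPM, the one most like miR-183-5p was let-7e-5p (r = 0.94), followed by miR-29c-3p (0.88) and miR-185-5p (0.87). Most like miR-96-5p were miR-434-5p (0.94), miR-151-3p (0.93) and miR-214-3p (0.93). Most like miR-182-5p were miR-365-3p (0.94), miR-6969-5p (0.94) and miR-106b-5p (0.94). Most like the scarce miR-182-3p were miR-154-5p (0.89), miR-200a-5p (0.87) and miR-187-3p (0.86). A shared low value raises r, so it is part of why such rows were picked and no further support. In control 44 miR-365-3p shared the low value of miR-182-5p, at 275 CPM against 472 to 1111 CPM in the other libraries. Likewise let-7e-5p shared that of miR-183-5p, at 2980 CPM against 4584 to 5764 CPM.

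Other microRNAs reported to target FoxO1 were set beside the guides. Of 7 such rows outside the cluster, 1 was higher and 0 were lower, where 1.2% of all rows passed in either direction. With the authors' totals 4 of the 7 were higher, where 24.8% of all rows were, and their median was 1.04. With TMM factors the values were positive for 5 and negative for 2, with a median log2 fold change of 0.25 against 0.0050 over all rows, and the median was -0.043 with upper quartile factors. The row that rose with TMM factors was miR-223-3p, a myeloid microRNA that also stands in the leukocyte list, with a log2 fold change of 2.75 (standard error 0.31, adjusted p = 0.0077 in edgeR). The 2 most abundant were miR-27a-3p, with a log2 fold change of -0.34 (edgeR adjusted p = 0.448), and miR-27b-3p, with one of -0.77 (edgeR adjusted p = 0.0802). With the authors' totals that of miR-27a-3p was 0.41 and that of miR-27b-3p was -0.00077.

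Lists for the cell types in which the cluster could be expressed were set beside it. Of 8 neural and sensory rows 0 passed, with a median log2 fold change of 0.089. This median was -0.19 with upper quartile factors and 0.84 with the authors' totals. The most abundant of these rows were miR-138-5p (0.047, edgeR adjusted p = 0.964) and miR-128-3p (0.030, edgeR adjusted p = 0.964). With the authors' totals their values were 0.81 and 0.80. Of 12 epithelial rows 0 passed, with 6 positive and 6 negative values. The epithelial miR-200c-3p and miR-200a-3p had log2 fold changes of -0.34 (edgeR adjusted p = 0.157) and -0.46 (edgeR adjusted p = 0.0866), which were 0.47 and 0.32 with the authors' totals. Of 9 tested islet and neuroendocrine rows 0 passed and 7 had negative values, with a median of -0.71 that was 0.11 with the authors' totals. In this list miR-375-3p had a log2 fold change of -0.73 (edgeR adjusted p = 0.0611), which was 0.085 with the authors' totals, and miR-7a-5p one of 0.0050 (edgeR adjusted p = 0.992). Among the neural and sensory rows 1 of 8 was higher with the authors' totals, among the epithelial rows 3 of 12 and among the islet and neuroendocrine rows 2 of 9, against 24.8% of all rows.

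Of the 8 acinar rows 0 passed and all had negative values with TMM factors, with a median of -0.49 that was 0.36 with the authors' totals. Of the 8 leukocyte rows 1 was higher, again miR-223-3p, and 7 had positive values, with a median of 0.86, where 1.2% of all rows passed. With the authors' totals 4 of the 8 were higher, against 24.8% of all rows, and their median was 1.61. The most abundant leukocyte rows, miR-150-5p and miR-146a-5p, had log2 fold changes of -0.35 (edgeR adjusted p = 0.735) and 0.73 (edgeR adjusted p = 0.246). Scaled by the totals of the authors, miR-150-5p was at 0.48 and miR-146a-5p at 1.53.

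On the TMM scale the summed levels of 3 of these lists were lower in every model library, while the guides overlapped between the groups. On that scale 31.1% of the 499 rows did not overlap, in either direction, and 70 of the 96 abundant rows outside the guides had negative values. Abundant rows weigh most in such sums: miR-375-3p alone averaged 60741 CPM in the control group. The epithelial sum was lower although 6 of its 12 rows had positive values. The acinar sum ran from 60514 to 97164 CPM in control and from 50646 to 54275 CPM in model libraries, the epithelial sum from 93128 to 110644 and from 77653 to 86256 CPM, and the islet and neuroendocrine sum from 61133 to 83555 and from 41031 to 54589 CPM. In the authors' RPM the acinar and epithelial sums were instead higher in every model library, and on the scale of total counts both overlapped. The islet and neuroendocrine sum overlapped in RPM and was lower in every model library on the scale of total counts. The leukocyte sum ran from 6755 to 10089 and from 7713 to 17683 CPM and overlapped. No listed microRNA was at 0 in all libraries. The part of these cell types in the levels of the cluster was not tested.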

How the data were processed

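Small RNA of 18 to 30 nt from 6 pancreas libraries was ligated to adapters carrying molecular identifiers and amplified, per the labels' protocols. The authors deposited read counts per microRNA arm, without normalization per the file headers, and RPM values, scaled to a larger library total (22055639 to 27876715 per library, read back from the ratio of both columns in rows with 100 counts or more). Neither the nature of this total nor any collapsing of identifiers is stated. Bowtie2 and GRCm38.p6 are named, with no role, in the submitters' processing notes.

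Counts were tested with edgeR 4.0.16 (filterByExpr defaults, TMM factors, robust quasi-likelihood test, Benjamini-Hochberg adjustment over 499 rows, threshold 0.05) in R 4.3.3. SE is the log2 fold change divided by the root of F. The 5p to 3p ratios were tested with limma 3.58.1, and DESeq2 1.42.0 was an alternative. The scripts were tested on simulated data. Other ratios used two-sided exact permutation tests. Named rows are the cluster's arms, rows sharing a seed, the 3 known rows of at least 100 CPM most correlated with each tested member, the 2 most abundant tested rows of each list and called list members. The members and lists were chosen with earlier results of these data known. The 3p arms of miR-96 and miR-182 were found by the naming rule after the tests had been listed. Where the unit was CPM over total counts or TMM-scaled, it was computed here.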

Additional observations from a re-analysis of the deposited data

How the results depend on the processing

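The count of rows called, 6 with TMM factors, was 15 with RLE factors, 18 with total counts alone, 45 with upper quartile factors, 126 with the authors' totals, 31 with DESeq2, 58 with no filter and 12 with at least 50 counts in 3 libraries, and ran from 3 to 10 as libraries were left out in turn (10 without control 43, and 3 each without control 44, control 45 and model 57). The splits into higher and lower were 5 and 1 with TMM, 7 and 8 with RLE, 17 and 1 with total counts alone, 6 and 39 with upper quartile factors, 124 and 2 with the authors' totals, 16 and 15 with DESeq2, 23 and 35 with no filter and 7 and 5 with the stricter filter. Relative to TMM, RLE factors moved the median of all rows by 0.0013, total counts by 0.30, upper quartile factors by -0.29 and the authors' totals by 0.79.

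The log2 fold change of miR-183-5p was 0.90 with the authors' totals, -0.13 with upper quartile factors and -0.0077 to 0.26 over libraries left out, that of miR-96-5p was 1.35 with the authors' totals and 0.31 to 0.91, and that of miR-182-5p was -0.16 with upper quartile factors and -0.22 to 0.43. The value below 0 was without control replicate 44 for both miR-183-5p (-0.0077) and miR-182-5p (-0.22). Each of these 3 stayed on the same side of the threshold in all 14 alternatives but the authors' totals for miR-183-5p and miR-96-5p. The edgeR adjusted p over the alternatives ran from 0.0371 to 0.986 for miR-183-5p, from 0.00661 to 0.702 for miR-96-5p and from 0.0758 to 0.971 for miR-182-5p. The difference of the log2 ratio of miR-183-5p to miR-182-5p ran from -0.36 to 0.22 over libraries left out, positive without control replicate 44 (0.22) and without model replicate 57 (0.068). That of miR-96-5p to miR-182-5p ran from 0.035 to 0.59 and that of miR-96-5p to miR-183-5p from 0.20 to 0.71. The 5p to 3p difference of miR-183 ran from -0.48 to 0.087, positive without control replicate 45 (0.034) and without model replicate 59 (0.087). The 5p to 3p difference of miR-182 ran from -1.12 to 0.37, positive without control replicate 45 (0.27) and without model replicate 56 (0.37). The difference in the cluster's share of counts, 0.531 percentage points, was 0.103 points of the authors' totals, which are larger totals, and 0.319 to 0.679 over libraries left out. Points over totals of such unlike size cannot be compared. The mean cluster sum was 11366 CPM over total counts in control and 16675 in model libraries, against 948 and 1979 in the authors' RPM, a wider relative difference. Counts averaged 8.45% of the authors' totals in control and 11.9% in model libraries, so the RPM difference is wider by arithmetic. Why these percentages differed, and the cause of the other changes, were not tested. No rate ratio of miR-96-3p could be had without control replicate 43, which held all its control counts. No paired analysis was possible because the groups share no replicate numbers.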
